A study of Rattus norvegicus with 64 samples.

Results

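The cadherin genes Cdh2, Cdh4, Cdh6, Cdh8, Cdh9, Cdh10, Cdh11, Cdh12, Cdh13, and Cdh22 were followed in the entorhinal cortex of the rat during postnatal development. The 10 genes were taken by name, with earlier results of these data known. Of the 10, 8 were found among the 17260 genes of the count files, and Cdh4 and Cdh12 are not analysed here. All 8 passed the filter on low counts. Of 9 further classical cadherins listed for comparison, 7 were found.

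Classical cadherins are calcium-dependent adhesion molecules that span the membrane and bind cadherins on the neighbouring cell. Inside the cell their tail binds p120-catenin and β-catenin, and α-catenin connects this complex to actin. Cdh2 (N-cadherin) is of type I and is found in neural progenitors and at synapses. Cdh6, Cdh8, Cdh9, Cdh10, Cdh11, and Cdh22 are of type II, the group known in brain for expression that differs between areas, layers, and circuits. Cdh13 (T-cadherin) has no tail and is held to the membrane by a lipid anchor, so it does not bind catenins.

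RNA came from 64 samples of untreated Long Evans rats, with no genotype or sex given in the labels. Layer II (LII) and layers III–VI together (LDeep) were cut by hand, under a dissection microscope, from slices of the medial (MEC) and lateral (LEC) entorhinal cortex. Samples were taken at postnatal days 2, 9, 23, and 45 (P2, P9, P23, P45). Each of these 4 tissues was represented by 5, 4, 3, and 4 samples at the respective ages, so there were 16 groups. Total RNA was sequenced after depletion of ribosomal RNA, and the counts of a sample summed to between 3894334 and 11439143 over all genes. Levels are in CPM, the count of a gene relative to the size of its library, which is the total scaled by the TMM method. Relative to the unscaled total, 1 count was 0.0874 to 0.257 CPM. The labels number replicates within an age. In the study's description of its microRNA samples of the MEC, the LII and LDeep samples with 1 number come from 1 animal, and whether MEC and LEC samples share animals is not given. The tests had no block of replicate number, and the value with such a block is given where it changed a call. A dissected piece holds neurons, glia, vessels, and, in LII, the brain surface. In such tissue, fewer cells of a type and less RNA per cell cannot be told apart.

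The labels of the layers were checked against markers (summed CPM of a list in each library). The 3 layer II markers (Reln, Calb1, Wfs1) were higher in LII and the 8 deep-layer markers lower, all past the test of the layer contrast described below, over all ages and both regions. All passed in the MEC alone too, and in the LEC alone 2 of 3 and 7 of 8 did. At P2 the check was weaker, with 1 of 3 layer II markers (Reln) and 6 of 8 deep-layer markers past the test. Markers of other cells moved with the layer as well. Higher in LII were 14 of 15 meningeal fibroblast markers, 5 of 6 arachnoid markers, 8 of 8 endothelial, 8 of 8 pericyte and smooth muscle, and 7 of 8 astrocyte markers, while 5 of 8 oligodendrocyte markers were lower. The meningeal sum had a median of 1278 CPM in LII (range 147 to 1965) and of 199 CPM in LDeep (range 110 to 1272). With age, 8 of 8 oligodendrocyte, 7 of 8 astrocyte, and 6 of 7 microglia markers rose.

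Both MEC libraries of P2 replicate 1 stood apart from the rest. The library labelled MEC LII had a glutamatergic sum of 137 CPM where the other 62 libraries had at least 626 CPM. In it Neurod6, a marker of cortical excitatory neurons, was at 0.40 CPM, Foxj1 of ciliated ependymal cells was at 135 CPM, and the GABAergic sum was the highest of all libraries (1578 CPM). The library labelled MEC LDeep went against its label. Its meningeal sum was 1272 CPM against 155 to 228 CPM in the other 9 LDeep libraries of P2, and its layer II sum was 785 CPM against 267 to 474 CPM. Another library, MEC LII P2 replicate 3, had a meningeal sum of 171 CPM, while replicates 2, 4, and 5 of its group had 991 to 1577 CPM. Results that rest on the 2 MEC libraries of P2 replicate 1 are given with and without them.

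**Figure D1:**
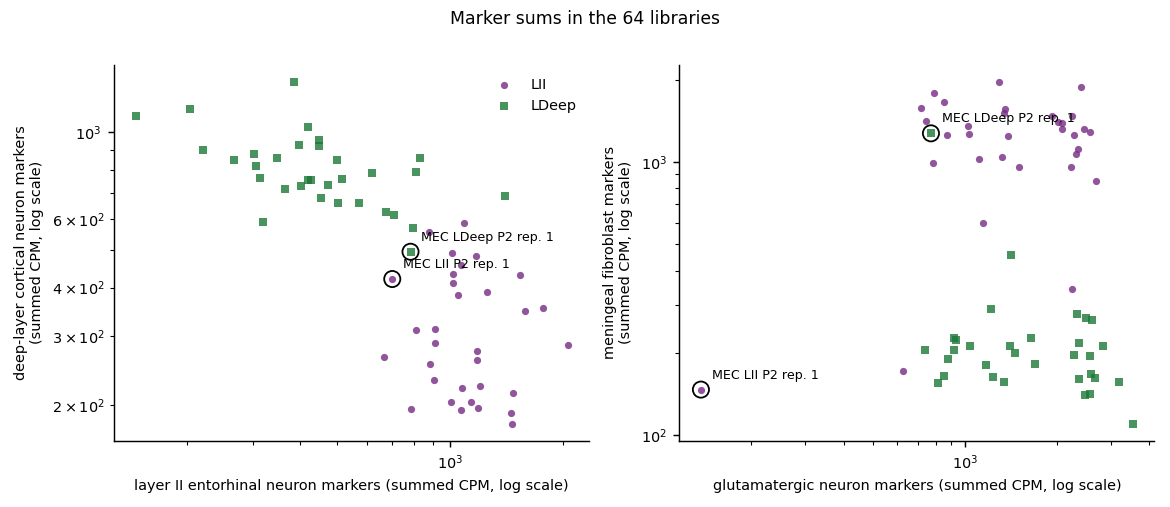
Each point is 1 of the 64 libraries, with LII as circles and LDeep as squares, both axes in summed CPM on log scales. Left, layer II neuron markers against deep-layer neuron markers. Right, glutamatergic neuron markers against meningeal fibroblast markers. The circled library labelled MEC LII P2 replicate 1 has 137 CPM of glutamatergic markers, below all others, and the circled library labelled MEC LDeep P2 replicate 1 has 1272 CPM of meningeal markers, among the LII libraries.

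The genes lie in a few places of the genome (build rn6, positions of the counted exons). Cdh6 (chr2:63100723-63246618), Cdh9 (chr2:66992313-67078477), and Cdh10 (chr2:69415394-69636849) follow each other on chromosome 2. Cdh11 (chr19:2393059-2551245) and Cdh8 (chr19:6031935-6422401) are near each other on chromosome 19, which also holds Cdh13 (chr19:50848793-51971614). Cdh2 is at chr18:8146971-8366025 and Cdh22 at chr3:161574993-161970872. Reads were counted over all exons of a gene, so that isoforms were not separated. The exons were listed in between 11 entries for Cdh9 and 21 for Cdh6, and an entry need not be a separate exon.

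Per length, Cdh13, Cdh2, and Cdh8 were the most abundant, with medians over the 64 samples of 67.7, 57.0, and 53.5 CPM per kb of exon. Cdh11 (36.0) and Cdh10 (32.6) were intermediate. Cdh9 (13.9), Cdh22 (10.4), and Cdh6 (9.60) were low, which is still 57 counts or more in every sample. The ranges overlapped between all neighbours in this order. Over the samples, Cdh2 ranged from 26.4 to 149 CPM per kb and Cdh10 from 18.2 to 51.7.

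The group with the highest mean level differed from gene to gene. Cdh2 was highest in MEC LDeep at P2 (119 ± 18.5 CPM per kb, SD, n = 5) and lowest in MEC LII at P45 (30.9 ± 4.38, n = 4). Cdh9 was highest in MEC LII at P9 (35.4 ± 3.95, n = 4) and lowest in LEC LII at P2 (7.91 ± 0.934, n = 5), and Cdh6 was also highest in MEC LII at P9 (14.5 ± 1.39, n = 4) but lowest in LEC LDeep at P2 (5.79 ± 1.59, n = 5). Cdh10 peaked in MEC LDeep at P9 (43.8 ± 6.85, n = 4). Cdh22 was highest in LEC LII at P45 (20.6 ± 2.36, n = 4) and lowest in MEC LDeep at P2 (4.01 ± 0.965, n = 5). Cdh13 reached 109 ± 8.78 in LEC LDeep at P9 (n = 4) and was lowest in MEC LII at P45 (36.8 ± 2.77, n = 4). For Cdh8 (111 ± 66.6, n = 5) and Cdh11 (61.8 ± 27.4, n = 5) the highest mean, in MEC LII at P2, held the library with few glutamatergic markers, where both genes had their highest level of all 64 samples.

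**Figure D2:**
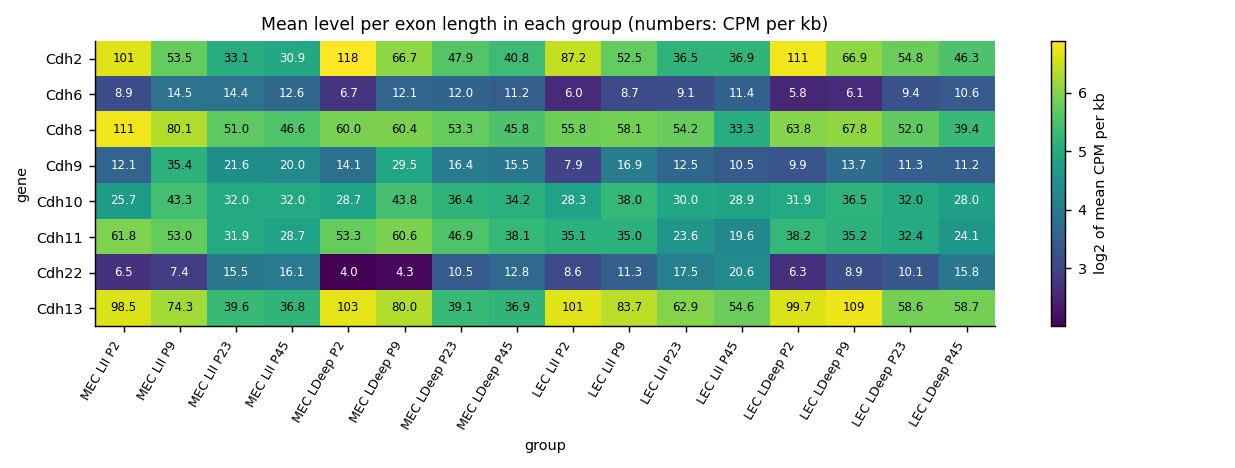
Mean level of the 8 cadherins in the 16 groups, in CPM per kb of counted exon (numbers) and as its log2 (colour), with 3 to 5 samples in each group. Cdh13, Cdh2, and Cdh8 were the most abundant and Cdh6, Cdh9, and Cdh22 the least, and Cdh9 stood highest in the MEC at P9.

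Differences are given as log2 fold change (LFC) with its standard error (SE) and with a p-value adjusted by the Benjamini-Hochberg method over all 12521 genes tested, from edgeR's quasi-likelihood test. A gene passed with an adjusted p below 0.05. Single levels are log2 CPM.

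The comparison of MEC and LEC, with ages and layers weighted equally, asked which cadherins set the regions apart. Of the 8 genes, 6 passed, while 15.4% of all genes did. Cdh9, Cdh11, Cdh6, and Cdh8 were higher in the MEC (4 of 8, against 8.87% of all genes), and Cdh13 and Cdh22 were higher in the LEC (2 of 8, against 6.53%). Cdh2 (LFC -0.06 ± 0.05, adjusted p = 0.52) and Cdh10 (0.11 ± 0.05, adjusted p = 0.21) did not pass. The median absolute LFC was 0.41 over the 8 genes and 0.08 over all genes tested.

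Cdh9, which is known from synapses of the hippocampus, had the largest difference. Its level ran from 3.88 to 6.87 in the MEC (median 5.71, n = 32) and from 4.24 to 5.92 in the LEC (median 5.08, n = 32). The ranges overlapped, but in 28 of the 32 pairs of samples with the same age, layer, and replicate number the MEC sample was higher. At P9, LII samples had 6.61, 6.51, 6.77, and 6.87 in the MEC and 5.66, 5.54, 5.92, and 5.32 in the LEC, so that the lowest MEC sample lay above the highest LEC sample. Such a separation held in 4 of the 8 combinations of age and layer. Groups this small can separate by chance, and the share of all genes that did so was not counted. Counts of separated combinations, here and for the genes below, are therefore a description only. The LFC of Cdh9 was 0.75 ± 0.09 (adjusted p = 1.7e-08), and it was 0.85 ± 0.13 in LII and 0.66 ± 0.13 in LDeep.

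Cdh11, an adhesion molecule of mesenchymal cells and neurons, ran from 7.02 to 9.12 in the MEC (median 7.94) and from 6.47 to 8.02 in the LEC (median 7.36). The MEC sample was higher in 31 of the 32 pairs. At P9 the LDeep samples had 8.31, 8.38, 8.17, and 8.31 in the MEC and 7.49, 7.39, 7.55, and 7.60 in the LEC. In 6 of the 8 combinations of age and layer, every MEC sample was above every LEC sample. The exceptions were both layers at P2. The LFC was 0.61 ± 0.07 (adjusted p = 8.4e-10), almost the same size in LII (0.60 ± 0.10) and LDeep (0.61 ± 0.10).

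Cdh6, known from boundaries between brain areas, ran from 3.46 to 5.89 in the MEC (median 5.32) and from 3.76 to 5.75 in the LEC (median 4.74). Its LFC was 0.47 ± 0.09 (adjusted p = 1.2e-04), with the MEC sample higher in 27 of 32 pairs. The clearest separation was at P9, where LDeep samples had 5.35, 5.60, 5.62, and 5.10 in the MEC and 4.11, 4.11, 4.76, and 4.71 in the LEC. Every MEC sample was above every LEC sample in 3 of the 8 combinations of age and layer. The regions overlapped in the others, LII at P45 among them. Cdh8, which is in 1 binding group with Cdh11, barely passed (LFC 0.23 ± 0.08, adjusted p = 0.039). Without the 2 MEC libraries of P2 replicate 1 its LFC was 0.16 and the adjusted p was 0.068, and leaving out any of 11 of the 16 replicate numbers also ended the call (all but P2 replicates 2, 3, and 4, P9 replicate 4, and P45 replicate 3, adjusted p up to 0.11), as did total-count scaling (0.065) and limma voom (0.072). Only in LII did Cdh8 pass (LFC 0.46 ± 0.11, adjusted p = 0.0030, and 0.34 with adjusted p = 0.0043 without the 2 libraries), but whether LII and LDeep differ in this is the test of the interaction below.

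Cdh13 was the more abundant of the pair of genes higher in the LEC. Its level ran from 6.82 to 9.20 in the MEC (median 7.56) and from 7.36 to 8.78 in the LEC (median 8.10). The MEC sample was higher in 6 of 32 pairs. At P45, LII samples had 6.95, 6.97, 6.82, and 7.09 in the MEC and 7.37, 7.43, 7.55, and 7.74 in the LEC, with no overlap. Every MEC sample was below every LEC sample in 5 of the 8 combinations of age and layer. The LFC was -0.39 ± 0.08 (adjusted p = 1.7e-04). At P2 the 5 MEC LII samples did not form 1 cloud. Replicates 1 and 3, the libraries with little meningeal signal, had 9.20 and 8.91, whereas replicates 2, 4, and 5 had 7.52, 7.56, and 7.79. The part of tissue composition in this spread was not tested.

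Cdh22, a type II cadherin first described in the pituitary and brain, ran from 3.18 to 5.93 in the MEC (median 4.91) and from 3.89 to 6.29 in the LEC (median 5.32). The MEC sample was higher in 5 of 32 pairs. At P9 the LDeep samples had 3.18, 4.04, 4.33, and 3.94 in the MEC and 4.64, 5.10, 4.80, and 5.26 in the LEC. Only 2 of the 8 combinations of age and layer had every MEC sample below every LEC sample. The LFC was -0.43 ± 0.10 (adjusted p = 8.9e-04). In MEC LII at P2, Cdh22 was split in the same way as Cdh13, with 4.85 and 5.45 in replicates 1 and 3 and 3.88, 3.74, and 3.73 in replicates 2, 4, and 5.

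Of these regional differences, those of Cdh6, Cdh9, Cdh11, Cdh13, and Cdh22 passed in all 8 other settings and in all 16 fits without 1 replicate number. Their LFC stayed within 0.42 to 0.53 for Cdh6, 0.71 to 0.81 for Cdh9, 0.55 to 0.64 for Cdh11, -0.43 to -0.37 for Cdh13, and -0.48 to -0.39 for Cdh22. Of all genes called, 57.6% were higher in the MEC, and 46.0% when libraries were scaled by total counts only. Of the cell type markers, 4 of 8 oligodendrocyte markers (median LFC of the list 0.57) and 2 of 6 of oligodendrocyte precursors were higher in the MEC. Of 8 deep-layer neuron markers 2 were higher and 3 lower, of 8 GABAergic markers 1 was higher and 2 lower, and Calb1 of the 3 layer II markers was lower. None of 15 meningeal and 6 arachnoid markers passed (the other counts were 1 of 8 endothelial, 1 of 8 pericyte and smooth muscle, 1 of 8 astrocyte, and 1 of 6 glutamatergic markers, all higher, and 1 of 7 microglia markers, lower). The part of these cells in the regional differences was not tested.

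**Figure D3:**
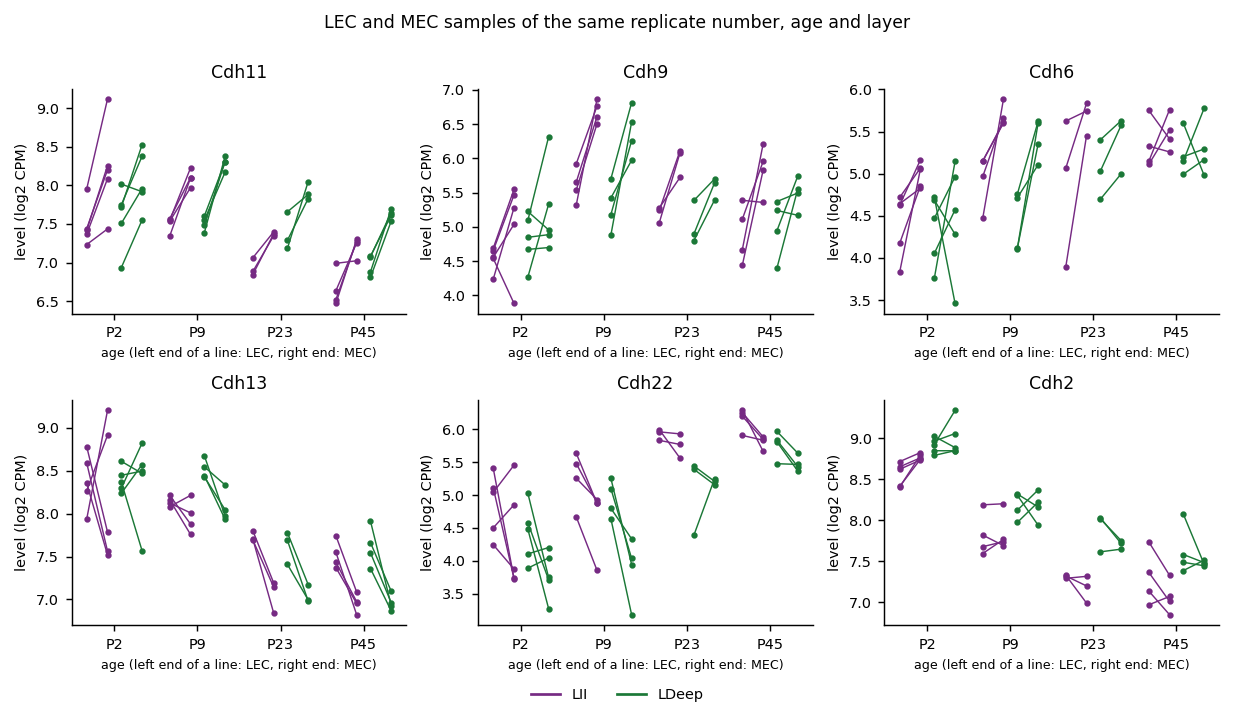
Level of 6 cadherins (log2 CPM) in LEC and MEC samples of the same replicate number, age, and layer, joined by a line from LEC (left) to MEC (right). LII pairs are purple and LDeep pairs green. Lines of Cdh11, Cdh9, and Cdh6 mostly go up (31, 28, and 27 of 32), those of Cdh13 and Cdh22 mostly go down (6 and 5 of 32 up), and those of Cdh2 go both ways (17 of 32 up).

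Within LII, 5 of 8 genes passed between regions (12.6% of all genes), and within LDeep also 5 of 8 (5.78%). In LII these were Cdh6, Cdh8, Cdh9, Cdh11, and Cdh13, and Cdh22 had an LFC of -0.38 ± 0.14 with an adjusted p of 0.055. Cdh22 passed in 7 of 8 other settings (adjusted p = 0.017 to 0.057, with 0.037 in DESeq2, 0.017 in limma voom, 0.017 with a replicate block, and 0.032 without the 2 MEC libraries of P2 replicate 1) and in 3 of 16 fits without 1 number. In LDeep they were Cdh6, Cdh9, Cdh11, Cdh13, and Cdh22. For Cdh6 in LDeep the adjusted p of 0.049 became 0.083 without the 2 MEC libraries of P2 replicate 1, and the call was also lost in most fits without 1 replicate number (adjusted p up to 0.14). Cdh22 in LDeep was lost without P9 replicate 4, P23 replicate 1 or 2, or P45 replicate 1 or 3 (0.053 to 0.12). Cdh13 was lost in LII without P2 replicate 5 (0.051) or P23 replicate 3 (0.063) and in LDeep without P23 replicate 1 (0.057). The LDeep count was 2 without P23 replicate 1 (Cdh9 and Cdh11) and 3 without P23 replicate 2 or P45 replicate 3.

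At single ages few genes of any kind passed between regions. At P2 only Cdh11 did (2.67% of all genes), with an LFC of 0.65 ± 0.12, which was 0.43 (adjusted p = 0.013) without the 2 MEC libraries of P2 replicate 1. With a replicate block Cdh8 passed at P2 as well (0.40, adjusted p = 0.036). Without a block its LFC was 0.45 (adjusted p = 0.066), and 0.17 (adjusted p = 0.47) without the 2 MEC libraries of P2 replicate 1. At P9, 4 of 8 genes passed (3.88% of all genes). These were Cdh9 (LFC 1.09 ± 0.18), Cdh6 (0.86 ± 0.18), Cdh22 (-0.82 ± 0.20), and Cdh11 (0.69 ± 0.13). Cdh13 was the gene that passed at P23 (3.57% of all genes), where its LFC was -0.62 ± 0.18, and it no longer passed without any 1 of the 3 replicate numbers of that age (adjusted p = 0.17 to 0.23). Without the 2 MEC libraries of P2 replicate 1, Cdh9 (LFC 0.66, adjusted p = 0.0084) and Cdh11 (0.48, adjusted p = 0.014) also passed at P23, and Cdh11 did so with a replicate block (0.49, adjusted p = 0.0027). At P45, Cdh9 (0.69 ± 0.19), Cdh11 (0.60 ± 0.14), and Cdh13 (-0.62 ± 0.15) passed (9.12% of all genes). Of these, Cdh9 was lost without P45 replicate 2 or 4 (adjusted p = 0.18 and 0.11) and Cdh13 without P45 replicate 4 (0.067). The Cdh22 difference at P9 was lost without P9 replicate 2 or 4 (0.057 and 0.051).

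Oligodendrocyte markers moved with region at the later ages. All 8 were higher in the MEC at P23 (median LFC 1.51) and at P45 (1.72), while none passed at P2 and 2 of 8 were lower at P9. Their sum at P9 in LEC LII had a median of 140 CPM but reached 847 CPM, and it was 117 to 131 CPM in MEC LII. Their sum at P45 was 6860 to 11850 CPM in MEC LDeep and 2445 to 4197 CPM in LEC LDeep, and it was 3513 to 4771 CPM in MEC LII and 786 to 1710 CPM in LEC LII. At P23 the regions did not overlap either, with 11870 to 16480 CPM against 4155 to 7115 CPM in LDeep. The part of oligodendrocytes in the regional differences of Cdh9, Cdh11, and Cdh13 at these ages was not tested.

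Whether the regional difference changed with age was tested directly. None of the 8 genes passed (3.80% of all genes did), while 4 had an unadjusted p below 0.05 (Cdh2, Cdh6, Cdh10, and Cdh13), and DESeq2 and limma voom called none either. The lowest adjusted p was that of Cdh13 (0.14). The LFC of Cdh13 was 0.01 at P2, -0.31 at P9, and -0.62 at both later ages, and that of Cdh6 was 0.39, 0.86, 0.51, and 0.11 from P2 to P45, but these trends did not pass.

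Between layers, with ages and regions weighted equally, 4 of 8 cadherins passed, close to the 54% of all genes that did. Cdh2 and Cdh11 were higher in LDeep (2 of 8, against 30.5% of all genes), and Cdh22 and Cdh6 were higher in LII (2 of 8, against 23.5%). The median absolute LFC was 0.16 over the 8 genes and also 0.16 over all genes. Of all genes called, 43.5% were higher in LII, or 65.6% when libraries were scaled by total counts only, and the median LFC of all genes moved from -0.05 to 0.03 between these scalings.

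The median level of Cdh2 was 7.71 in LII (lowest 6.85, highest 8.83) and 8.10 in LDeep (lowest 7.39, highest 9.34). In only 1 of the 32 pairs with the same number, age, and region was the LII sample higher. At P23, MEC samples had 7.20, 7.31, and 6.99 in LII and 7.65, 7.75, and 7.72 in LDeep. LEC samples of P23 had 7.32, 7.29, and 7.33 in LII and 7.61, 8.02, and 8.03 in LDeep, so that the layers did not overlap in either region. The LFC was -0.39 ± 0.05 (adjusted p = 2.0e-09), with -0.37 ± 0.07 in the MEC and -0.40 ± 0.07 in the LEC, and it passed in all alternative fits (-0.43 to -0.28).

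The median level of Cdh22 was 5.47 in LII (lowest 3.73, highest 6.29) and 4.91 in LDeep (lowest 3.18, highest 5.97). The LII sample was higher in 30 of 32 pairs. At P23 the MEC samples had 5.77, 5.56, and 5.93 in LII and 5.21, 5.16, and 5.25 in LDeep, again without overlap. The LFC was 0.54 ± 0.10 (adjusted p = 5.5e-06, 0.49 to 0.62 in the alternative fits, all past the test).

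Cdh11 (LFC -0.23 ± 0.07, adjusted p = 0.0041) was higher in LII in only 7 of 32 pairs. It did not pass when libraries were scaled by total counts only (-0.15, adjusted p = 0.075) or with limma voom and quantile normalization (-0.13, adjusted p = 0.12). For Cdh6 the LFC was 0.22 ± 0.09 (adjusted p = 0.041), and the call was lost when P2 replicate 5, P9 replicate 1, 2, or 4, P23 replicate 1, or P45 replicate 1, 2, or 4 was left out (0.17 to 0.22, adjusted p = 0.062 to 0.16). The remaining genes, Cdh8, Cdh9, Cdh10, and Cdh13, had an LFC between -0.08 and 0.11. Cdh9 passed without the 2 MEC libraries of P2 replicate 1 (LFC 0.19, adjusted p = 0.026), and Cdh10 passed without P45 replicate 4 (-0.14, adjusted p = 0.022). Meningeal, vascular, and astrocyte markers were higher in the same LII libraries, and their part in the layer differences was not tested.

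In the MEC alone, 4 of 8 genes passed between layers (40.8% of all genes), and in the LEC 2 of 8 did (38.6%). Cdh2 and Cdh22 passed in both regions. In the MEC, Cdh8 was higher in LII (0.31 ± 0.11, adjusted p = 0.022) and Cdh11 lower (-0.23 ± 0.10, adjusted p = 0.045). Both were lost without P9 replicate 1, P23 replicate 1, P23 replicate 3, or P45 replicate 3, which left 2 of 8, and also when only MEC samples were fitted, and that of Cdh11 held in 4 of the 16 fits without 1 number and in 2 of 9 other settings (the block and the fit without the 2 MEC libraries of P2 replicate 1, against an adjusted p of 0.053 in DESeq2 and 0.25 in limma voom). In the LEC, Cdh11 had a similar value that did not pass (-0.22 ± 0.10, adjusted p = 0.065). It passed there with a replicate block (-0.22, adjusted p = 0.0071), with LEC samples only (-0.21, adjusted p = 0.045), without the 2 MEC libraries of P2 replicate 1 (adjusted p = 0.036), and without P2 replicate 1 or 3 (0.015 and 0.022). Without the 2 MEC libraries of P2 replicate 1, Cdh6 (0.32, adjusted p = 0.037) and Cdh9 (0.35, adjusted p = 0.0048) passed as well in the MEC, which made 6 of 8. In that fit the LFC of Cdh8 in the MEC was 0.23 (adjusted p = 0.030).

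In the LEC the LFC of Cdh8 was -0.15 ± 0.11, the opposite sign to that in the MEC. The test of this interaction gave a difference of 0.46 ± 0.16 with an adjusted p of 0.15, so it did not pass, whereas with a replicate block it did (0.45, adjusted p = 0.049). Without the block none of the 8 genes passed (1.25% of all genes), and Cdh8 was the 1 gene with an unadjusted p below 0.05. DESeq2 and limma voom called none. Whether the layers differed by another amount at other ages was tested too, and without a block none of the 8 genes passed (8.62% of all genes), by edgeR, DESeq2, or limma voom, with Cdh11 the 1 gene at an unadjusted p below 0.05 (adjusted p = 0.17). With a replicate block in edgeR, Cdh11 passed (adjusted p = 0.015).

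At P2 (19.2% of all genes), P9 (33%), P23 (25.9%), and P45 (26.4%), the layer difference passed for 2, 2, 3, and 2 of the 8 genes. Cdh2 was lower in LII at all 4 ages (LFC -0.29, -0.33, -0.56, and -0.36). Cdh22 was higher in LII at P2, P9, and P23 (0.58, 0.56, and 0.67), and at P45 it had 0.36 with an adjusted p of 0.16. Cdh11 passed at P23 (-0.51) and P45 (-0.35) and had LFC of 0.05 and -0.10 at P2 and P9. With 3 to 5 samples in each group, many of these calls were lost when 1 replicate number of the age was left out, those of Cdh2 at P2 (replicates 4 and 5, adjusted p = 0.065 and 0.059) and P9 (replicates 1 and 3, 0.068 and 0.051) among them. Cdh22 was lost at P2 without the 2 MEC libraries of P2 replicate 1 (LFC 0.48, adjusted p = 0.055) or without replicate 3 (0.076), at P9 without replicate 2 or 4 (0.099 and 0.071), and at P23 without replicate 1 or 3 (0.051 and 0.26). Cdh11 was lost at P23 without replicate 2 or 3 (0.076 and 0.10) and at P45 in 8 of 16 fits without 1 number, from any age. With limma voom, Cdh11 was lost at P23 (0.067) and P45 (0.17) and Cdh22 at P2 (0.080). The P45 call of Cdh11 was also lost with RLE (0.054) or total-count scaling (0.15). It was lost as well with no filter on low counts (0.061) or with at least 10 counts in every sample (0.12).

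**Figure D4:**
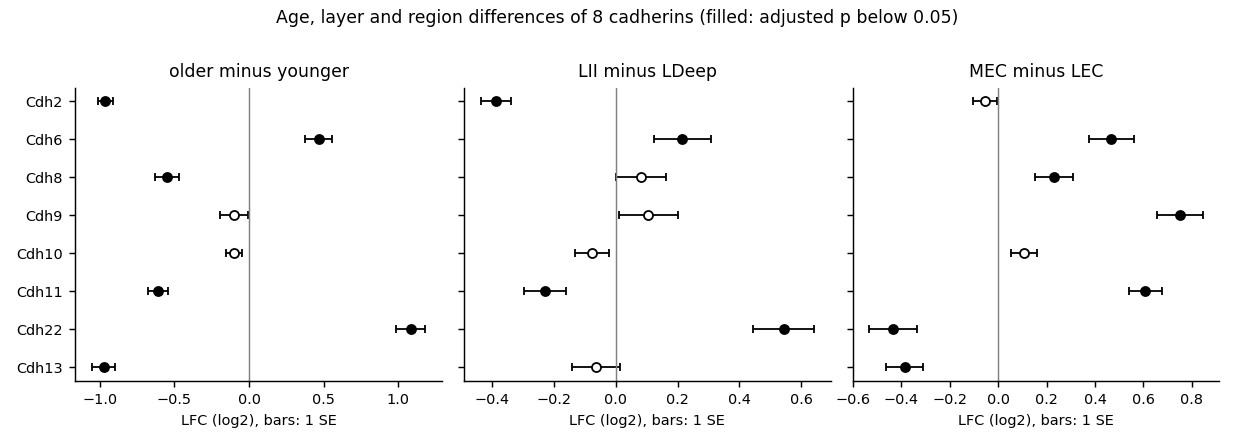
LFC (log2) of the 8 cadherins between older and younger ages, between layers, and between regions, with bars of 1 SE and filled points for an adjusted p below 0.05. Region separates Cdh9 and Cdh11 (right of 0) from Cdh13 and Cdh22 (left of 0), whereas Cdh2 differs between ages (-0.96) and layers (-0.39) but not past the test between regions (-0.06).

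The younger ages, P2 and P9, were compared with P23 and P45, the 4 tissues weighted equally. Of the 8 cadherins 6 passed, a share near the 81.6% of all genes. Cdh2, Cdh13, Cdh11, and Cdh8 fell (4 of 8, against 40.6% of all genes), and Cdh22 and Cdh6 rose (2 of 8, against 41%). Cdh9 and Cdh10 had an LFC of -0.10 each and did not pass, although both changed between single ages. The median LFC was -0.32 for the 8 genes and 0.01 for all genes.

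Cdh2 had its highest levels at P2. In LEC LDeep the P2 samples had 8.79, 9.02, 8.85, 8.92, and 8.97 and the P9 samples 8.12, 7.97, 8.30, and 8.32. It was then at 7.61, 8.02, and 8.03 (P23) and at 7.49, 7.39, 7.58, and 8.07 (P45). The P2 samples lay above all later ones in this tissue. The LFC between older and younger ages was -0.96 ± 0.05 (adjusted p = 1.6e-24). Most of the fall came early, with -0.80 ± 0.07 from P2 to P9 and -0.50 ± 0.07 from P9 to P23, while -0.14 ± 0.07 from P23 to P45 did not pass.

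Most of the fall of Cdh13 came after P9. In MEC LDeep the P2 samples had 7.57, 8.50, 8.47, 8.82, and 8.57 and the P9 samples 8.33, 7.93, 7.97, and 8.04. The later samples had 6.98, 7.17, and 6.99 (P23) and 6.96, 6.86, 7.09, and 6.93 (P45). Both older ages lay below both younger ones. The lowest P2 value was that of the library that went against its label. Over the 4 tissues the LFC was -0.97 ± 0.08 (adjusted p = 1.5e-16), and the step from P9 to P23 was -0.81 ± 0.12 (adjusted p = 3.6e-08). The step from P2 to P9 passed only narrowly (-0.23 ± 0.10, adjusted p = 0.047). It was lost without P2 replicate 3 or any replicate of P9 and in 4 other settings, among them a replicate block (-0.16, adjusted p = 0.26, limma).

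Cdh22 went the opposite way. In MEC LDeep the P2 samples had 3.28, 4.04, 3.75, 3.71, and 4.20 and the P9 samples 3.18, 4.04, 4.33, and 3.94. Those of P23 had 5.21, 5.16, and 5.25 and those of P45 5.37, 5.47, 5.43, and 5.64, with no overlap between the younger and older ages. Its LFC was 1.08 ± 0.10 (adjusted p = 6.8e-15), of which 0.79 ± 0.15 lay between P9 and P23. From P2 to P9 its LFC was 0.29 ± 0.13 (adjusted p = 0.052), which passed in 6 of 9 other settings (0.042 in DESeq2, 0.039 in limma voom), without P2 replicate 3 (0.43, adjusted p = 0.0023), and without P9 replicate 1 (0.45, adjusted p = 0.0029). Cdh6 also rose (0.47 ± 0.09, adjusted p = 7.1e-06), but between P2 and P9 (0.54 ± 0.12, adjusted p = 1.3e-04). From P9 to P23 its LFC was 0.17 ± 0.14 (adjusted p = 0.28, or 0.36 with an adjusted p of 0.025 without P23 replicate 3).

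Cdh11 (LFC -0.61 ± 0.07, adjusted p = 1.5e-11) and Cdh8 (-0.55 ± 0.08, adjusted p = 1.9e-08) fell after P9. From P2 to P9 their LFC were -0.04 ± 0.09 and -0.08 ± 0.10. From P9 to P23, Cdh11 fell by 0.45 and Cdh8 by 0.33 on the log2 scale, and the fall of Cdh8 was lost without P9 replicate 4 (adjusted p = 0.051), without P23 replicate 1 (0.085), and with counts summed over the 4 samples of a replicate number (0.12). In LEC LII, Cdh8 was at 7.23, 7.43, 7.70, and 7.59 at P9 and at 6.04, 6.64, 6.92, and 6.99 at P45, without overlap.

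Cdh9 and Cdh10 were highest at P9. In LEC LII, Cdh9 had 4.54, 4.66, 4.56, 4.24, and 4.69 (P2), 5.66, 5.54, 5.92, and 5.32 (P9), and 5.06, 5.28, and 5.24 (P23), so that P9 stood above both. Over the 4 tissues its LFC was 1.05 ± 0.12 from P2 to P9 (adjusted p = 1.8e-10) and -0.57 ± 0.14 from P9 to P23 (adjusted p = 4.5e-04). Cdh10, like Cdh9 a cadherin of synapses, had smaller steps of 0.50 ± 0.07 (adjusted p = 3.7e-08) and -0.31 ± 0.08 (adjusted p = 9.7e-04). In MEC LII its values were 5.86, 6.48, 6.40, 6.30, and 6.62 (P2), 7.14, 7.17, 7.02, and 7.08 (P9), and 6.74, 6.57, and 6.69 (P23), again with P9 above the others. The LFC of Cdh10 between older and younger ages passed without P2 replicate 3, P9 replicate 4, or P45 replicate 4 (-0.14 to -0.12, adjusted p = 0.011 to 0.036), under total-count scaling (-0.18, adjusted p = 0.0036), and with limma voom (-0.14, adjusted p = 0.023).

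Counted by steps, 5 of 8 genes passed between P2 and P9 (63.4% of all genes), 7 between P9 and P23 (64.6%), and none between P23 and P45 (3.85%). In the last step 3 genes had an unadjusted p below 0.05 (Cdh8, Cdh11, and Cdh22), and DESeq2 and limma voom called none. Without the 2 MEC libraries of P2 replicate 1, Cdh8 (-0.36, adjusted p = 0.0087) and Cdh11 (-0.29, adjusted p = 0.033) passed there, with almost the same LFC as with them (-0.36 and -0.28) and SE of 0.09 and 0.08 in place of 0.12 and 0.10. Without P2 replicate 3, Cdh11 passed, and without P45 replicate 4, Cdh2 and Cdh8 did.

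Age differences were also read within each tissue, where no replicate number occurs more than once at an age. In MEC LII 5 of 8 genes passed (66.5% of all genes), in MEC LDeep 4 (66.2%), in LEC LII 6 (62.7%), and in LEC LDeep 6 (64.5%). Cdh2, Cdh11, and Cdh13 fell and Cdh22 rose in all 4 tissues. Cdh13 had an LFC of -1.16 and -1.25 in LII and LDeep of the MEC and of -0.65 and -0.83 in those of the LEC, and without the 2 MEC libraries of P2 replicate 1 the value in MEC LII was -1.01. Cdh8 passed in 3 tissues and had -0.29 in MEC LDeep (adjusted p = 0.11). Cdh6 passed in both layers of the LEC, in LII with an LFC of 0.49 that was 0.24 (adjusted p = 0.30) without P23 replicate 1 and 0.42 (adjusted p = 0.056) with a replicate block in limma. In MEC LDeep it passed without the 2 MEC libraries of P2 replicate 1 (0.48, adjusted p = 0.018) and with that block (0.43, adjusted p = 0.027). Without P23 replicate 1, Cdh8 in LEC LII (0.059) and Cdh11 in LEC LDeep (0.072) were lost. With counts summed over the 4 samples of a replicate number, the 6 genes that passed between older and younger ages did so again. The main age tests took samples of the same number as independent, which can make their SE and p too small. Over the 9 other settings, these sums among them, the highest adjusted p of the 6 genes ran from 4.8e-10 (Cdh13) to 3.5e-04 (Cdh8).

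**Figure D5:**
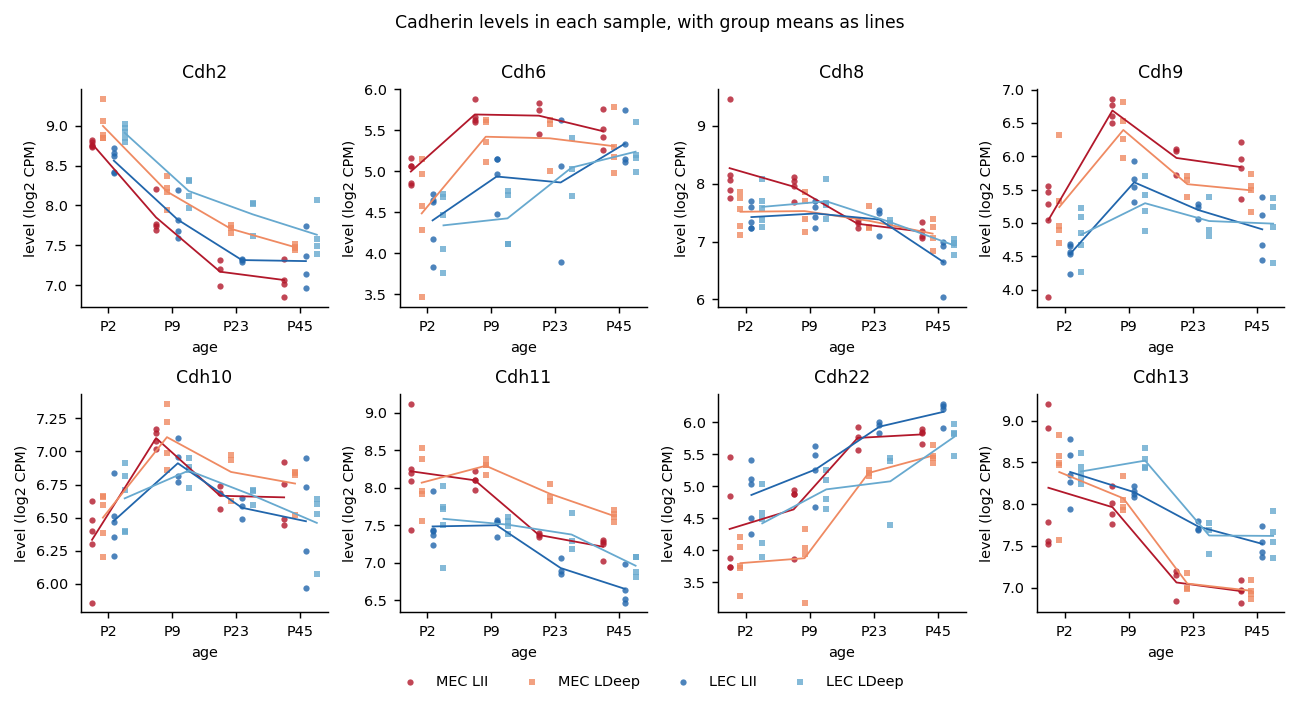
Level of each cadherin (log2 CPM) at P2, P9, P23, and P45 in the 4 tissues. Points are the 64 samples, with LII as circles and LDeep as squares, MEC in red tones and LEC in blue tones, and lines join the group means. Cdh2 and Cdh13 go down with age, Cdh22 goes up, Cdh9 and Cdh10 peak at P9, and MEC and LEC lines stay apart for Cdh9 and Cdh11.

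The other genes of the adhesion complex were counted in the same fit. Between ages, 2 of 8 catenins rose and 6 fell. Ctnna1 (αE-catenin) rose by an LFC of 0.25 ± 0.04 while Ctnna2 (αN-catenin, the neuronal form) fell by 0.64, and Arvcf and Jup, relatives of p120-catenin and β-catenin, had -0.97 and -0.69. Of 12 further genes of cadherin junctions, none rose and 9 fell. Ptprf, a receptor phosphatase, Pvrl1 (nectin 1), and Mllt4 (afadin) had the largest changes, with LFC of -0.64, -0.62, and -0.60. Of the 7 other classical cadherins, Cdh19, a cadherin of glia, rose by an LFC of 4.23 ± 0.27, Cdh20 by 1.38 ± 0.10, and Cdh15 by 0.50 ± 0.10, and Cdh3 fell by 0.83. The median LFC was -0.34 for both catenins and junction genes and 0.03 for the other cadherins, and 81.6% of all genes passed in this contrast.

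Between layers, where 54% of all genes passed (23.5% higher in LII and 30.5% lower), 1 of 8 catenins was higher in LII and 4 were lower. Ctnna1 had an LFC of 0.31 ± 0.04, and Ctnnb1 (β-catenin) had -0.25 ± 0.03, Ctnnd2 -0.21, and Ctnna2 -0.20. Among the other classical cadherins 4 of 7 were higher in LII, led by Cdh1 (E-cadherin, of epithelia, LFC 4.94 ± 0.36), Cdh5 (VE-cadherin, of endothelium, 1.98 ± 0.15), and Cdh3 (P-cadherin, 1.87 ± 0.22). Cdh15 was lower (-0.24), a call that was lost in most other fits. Arachnoid and endothelial markers were higher in the same layer, and their part in these differences was not tested. Of the 12 junction genes 4 were higher in LII (Vcl 0.79, Pvrl3 0.41, and Pard3 0.41 among them) and 2 lower (Magi2 -0.35 and Mllt4 -0.22). Ctnnd2 and Mllt4 did not pass with limma voom (adjusted p = 0.11 and 0.063), and Ctnnd1 (p120-catenin) passed with a replicate block (0.14, adjusted p = 0.048).

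Between regions, where 15.4% of all genes passed, 1 of 7 other classical cadherins, 3 of 8 catenins, and 4 of 12 junction genes did. The cadherin was Cdh20, a type II cadherin, with an LFC of 0.69 ± 0.11 (adjusted p = 1.4e-06, higher in the MEC), and Cdh7 passed with a replicate block (0.29, adjusted p = 0.033). Of the catenins, Ctnna1 was higher in the MEC (0.13 ± 0.04) and Ctnna2 (-0.13) and Ctnnb1 (-0.12) were lower. Among the junction genes, the polarity gene Pard3 (0.47 ± 0.07) and the scaffold gene Magi2 (0.14) were higher and Pvrl3 (-0.23) and Ptprf (-0.21) lower. The calls of Ctnna1 and Ptprf were lost in many other fits, and that of Pvrl3 without P45 replicate 1 (adjusted p = 0.052).

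The genes whose group means were most like those of a cadherin over the 16 groups were listed as a description. They share libraries, depth, and the age course with it. For Cdh2 these were Fam227a (Pearson's r = 0.99) and Mycl (0.99), for Cdh13 Smarcd3 and Ydjc (0.97 each), for Cdh22 Pls3 and Runx1 (0.96 each), and for Cdh6 Stk26 (0.95) and Cpne9 (0.92). Cdh9 was most like Gpr6 (0.91) and Pomc (0.89), Cdh10 was most like Abcd3 (0.89) and Lppr5 (0.88), and for Cdh8 (Abcf1, Cep120) and Cdh11 (Ky, Lemd3) the values were 0.89 to 0.90.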

How the data were processed

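Members and gene lists were chosen with earlier results of these data known. The authors extracted total RNA, prepared stranded libraries with Ribo-Zero, removed adapters by Trimmomatic 0.33, aligned to rn6 using STAR 2.4.0 (submitters' processing notes), and counted pairs on RefSeq exons with featureCounts (Subread 1.4.6-p1). The deposited values are these counts per gene, not normalized, with 1 table for each of 64 samples. A pair over 2 genes was counted for both. Counting used strand, so antisense reads were not added.

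In R 4.3.3, edgeR 4.0.16 was used with TMM library sizes, filterByExpr (12521 genes kept), 1 mean for each of 16 groups, no block, and the quasi-likelihood F test with Benjamini-Hochberg adjustment (threshold 0.05). SE is the absolute LFC over the square root of F. For levels, 2 prior counts were added before the log2 of CPM. A chi-square comparison of counts gave at least 3.08 per degree of freedom for all 100 replicate pairs, so none were counted together. On simulated counts, genes with an LFC of 0.5 and of 1 were recovered at 100% and 100% by the age test (12157 genes, 5.21% of calls false), at 99% and 100% by the layer test (12169 genes, 2.93% false), and at 99% and 100% by the region test (12160 genes, 6.13% false). The simulated counts were independent, with the same dispersion for all genes and no effect of replicate number. The rates hold for that setting only. Per the study, 1 number marks LII and LDeep of 1 animal in its MEC microRNA samples. Deviations from group means correlated at 0.134 on average between samples of the same number (96 pairs, 55 above 0.1) and at -0.043 between other samples of an age (300 pairs, 59 above 0.1). The tests without a block were kept as the main ones.

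Alternatives were RLE and total-count scaling, DESeq2 1.42.0, limma 3.58.1 voom with quantile normalization, no filter or at least 10 counts in every sample, a block of replicate number, counts summed per number, samples of 1 region, each number left out, and, chosen after seeing the data, the 2 MEC libraries of P2 replicate 1 left out. Named genes were all members, up to 3 genes per list, direction, and main contrast by size of LFC, and the 2 genes most like each member. Sequences were not used.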

Additional observations from a re-analysis of the deposited data

Results flagged for a closer look

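In groups of 4 or 5 samples, 8 of 96 combinations of cadherin and group held a sample far from the others, judged by its gap to the nearest sample relative to the range of the group (Dixon's 95% limit). Chance flags about 1 in 20. Of the 8, 3 were at P2. In the 2 MEC libraries of P2 replicate 1 that stood apart by their markers, Cdh8 was at 9.47 log2 CPM in the library labelled MEC LII, where the next sample was at 8.16, and Cdh13 was at 7.57 in the library labelled MEC LDeep, where the next was at 8.47. Cdh11 was at 7.96 in LEC LII P2 replicate 1 (next sample 7.44).

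At P9, Cdh22 was low in MEC LII replicate 1 (3.86, next sample 4.87), Cdh2 was high in MEC LII replicate 4 (8.20, next 7.77), and Cdh11 was low in LEC LII replicate 1 (7.35, next 7.54). At P45, Cdh10 was low in MEC LDeep replicate 3 (6.52, next 6.82) and Cdh11 was low in MEC LII replicate 3 (7.02, next 7.26).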

How the results depend on the processing

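Over 13 comparisons, the count of cadherins past the test kept within 1.5 times its value in 106 of 110 settings that used all replicate numbers and in 198 of 208 that left 1 out, and no call of a cadherin changed direction. With a replicate block of fixed terms in edgeR, 1 gene passed for the layer difference between regions (Cdh8, adjusted p = 0.049) and 1 for its change with age (Cdh11, adjusted p = 0.015), where none did without it. The block changed no call of a cadherin other than these and those given with it above. The random block in limma used a correlation of 0.123. Without the 2 MEC libraries of P2 replicate 1, 2 genes passed between P23 and P45, and with MEC samples alone 2 passed between layers of the MEC.

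With 1 replicate number left out, the counts ranged from 6 to 7 between older and younger ages, 4 to 5 from P2 to P9, 6 to 8 from P9 to P23, 0 to 2 from P23 to P45, 3 to 5 between layers, 2 to 6 in the MEC, 2 to 3 in the LEC, 5 to 6 between regions, 4 to 6 in LII, 2 to 5 in LDeep, and 0 to 0 for the 3 interactions. Of the other adhesion genes, Cdh1 had an LFC of -0.42 between ages (not past the test) and 0.99 (adjusted p = 0.0028) with counts summed per replicate number. Cdh6, Cdh9, and Cdh22 had under 90 counts in some samples, and the part of depth was not tested. The cause of these changes was not tested.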
